A study of Mus musculus with 17 samples.

Results

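The genes described here encode the classical axon guidance ligands and receptors. They were chosen by a rule on symbols, with earlier results of these data known. The symbols are those of ephrins and Eph receptors, Slits and Robos, and semaphorins of classes 3 to 7 with plexins and neuropilins. They also cover Ntn1, Ntn4, Dcc and Unc5a to Unc5d, and the netrin-Gs Ntng1 and Ntng2. The rule found 69 members among 52636 genes of the single-cell table and the same 69 among 28692 genes of the spot table. By role, they are 8 ephrins and 14 Eph receptors, 3 Slits and 4 Robos, 20 semaphorins and 11 plexins or neuropilins, 2 netrins and 5 netrin receptors, and 2 membrane-bound netrin-Gs. All samples were wild type, with no treatment, and the labels used here gave no age. Single cells of the anterior thalamic nuclei had been microdissected and collected by hand into plates, and the deposited well table assigned them to 3 animals. Spatial transcriptomes came from Visium slides, on which each spot captures RNA from a small patch of a tissue section that can hold several cells. The labels name 2 posterior sections (sections 2 and 6) and 1 anterior section (section 5), each 10 µm thick and permeabilized for 24 min.

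Guidance ligands are secreted or displayed on cell surfaces, and receptors on the growing axon turn them into attraction or repulsion through the cytoskeleton. Ephrins signal to Eph receptor tyrosine kinases, Slits to Robos, semaphorins to plexins with or without neuropilins, and netrin to Dcc and Unc5 receptors. Netrin-Gs are anchored to the membrane by a lipid, do not bind Dcc, and bind partner proteins at synapses. In the thalamus these families are best known for sorting thalamocortical axons during development, and many stay expressed in adult neurons, where they also act at synapses.

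After wells with fewer than 1000 detected genes were left out, 904 cells remained, 103, 328 and 473 from animals 1, 2 and 3, with median totals of 49798, 8845 and 50474 counts per cell. Of the 103 cells of animal 1, 86 came from 1 plate. The 7827 spots held medians of 8990, 5313 and 7210 counts in sections 2, 5 and 6. The same 384 well barcodes recur across plates and 2393 spot barcodes recur across sections. The members and 70 other guidance pathway genes were kept out of the clustering, so that neither list shaped the groups in which it was tested. The cells fell into 4 neuron clusters and a cluster of 27 cells in which 9 of 9 oligodendrocyte markers were highest. The neuron clusters are called by a leading gene: Car4 (440 cells), Calb2 (261), Cacng4 (137) and C1ql2 (39). All 4 markers of the anterodorsal nucleus were highest in the C1ql2 cluster and all 4 anteromedial or midline markers in the Calb2 cluster, while 3 of 4 anteroventral markers were highest in the Car4 cluster. The Calb2 cluster was also highest in 7 of 7 reticular thalamic markers, and the Car4 cluster in 6 of 6 pericyte or smooth muscle markers, whose summed level ran from 0.582 to 377 CPM (counts per 1000000 counts of the sum) across its 3 animals. The 7 astrocyte markers summed to 853 to 1235 CPM in the C1ql2 cluster and to 481 to 779 CPM in the other clusters. Of those in the C1ql2 cluster, Aldoc and Slc1a2 were present and Aqp4, Gja1, Slc1a3, Gfap and Gjb6 were at 0. The C1ql2 cluster also had the deepest cells, with a median of 121250 counts against 18456 to 39720. The Cacng4 cluster was highest in 6 of 7 astrocyte markers, of which Aqp4, Gja1, Slc1a3, Gfap and Gjb6 stood at 0.986 to 14.5 CPM there. Its 4 oligodendrocyte precursor markers summed to 169 CPM, with a range of 0 to 205 CPM across its 3 animals, against 1.23 to 10.9 CPM in the other neuron clusters. In the 27 oligodendrocyte cells the 13 thalamic neuron markers summed to 2367 CPM, against 2736 to 4714 CPM in the neuron clusters. Values given below for the oligodendrocyte cells may thus include RNA of neurons. The part of these markers and of depth in the results below was not tested, except where a value at matched depth is given.

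Across the neurons, members of each family except the netrin ligands differed among clusters, and the C1ql2 cluster stood at one end for most of them. Counts were summed per animal and cluster and compared with edgeR's quasi-likelihood test, with the animal as a block and Benjamini-Hochberg adjustment over all genes. Of the 69 members, 52 had enough counts to be tested, and 14 of these (26.9%) differed at an adjusted p under 0.05, where 12.8% of all tested genes did. An unadjusted p under 0.05 was reached by 26. Counts at an unadjusted p, here and below, have no share of all genes beside them. When each cluster was compared with the mean of the other three, 17 members were called in the C1ql2 cluster. Of these, 4 were higher, where 6.23% of all tested genes were, and 13 were lower, where 6.13% were. In the Cacng4 cluster, which also held the glial markers given above, 8 were higher (7.15% of all genes) and 1 lower (7.18%). In the Car4 cluster 1 was lower (0.169%). In the Calb2 cluster edgeR called 0 in either direction (0.927%), although 16 members had an unadjusted p under 0.05 and DESeq2 called 2. The median log2 fold change of the tested members was -1.06 in the C1ql2 cluster and 0.50 in the Cacng4 cluster, against -0.24 and -0.03 over all genes.

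These contrasts are tied to each other, because the C1ql2 cluster belongs to the comparison group of every other cluster. Without it, 2 members differed among the remaining 3 clusters, Epha10 and Epha5 (5.8% of all genes did), and 3 stayed called in the Cacng4 cluster (8.27% of all genes). Leaving out animal 2 or animal 3 lowered the 14 members to 3 each time, and leaving out animal 1 raised them to 28. The share of all genes called without an animal is not given here, so these shifts are not read as particular to the members. The calls in the C1ql2 cluster that held in all 6 alternative analyses were Epha7, Efna5, Sema3e and Nrp1. Of the other 13, Robo1 and Slit2 were lost without animal 3, and 10 without either of these animals. Dcc was lost without animal 2 and had too few counts to be tested without animal 3. With no replicate block, Epha5 and Ntng1 also lost their calls, and Epha10 with no filter on low counts. The highest adjusted p over the alternatives ran from 0.0642 for Robo1 to 0.376 for Ntng1. In the Cacng4 cluster Epha10 and Epha7 held in all 7 alternatives.

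**Figure D1:**
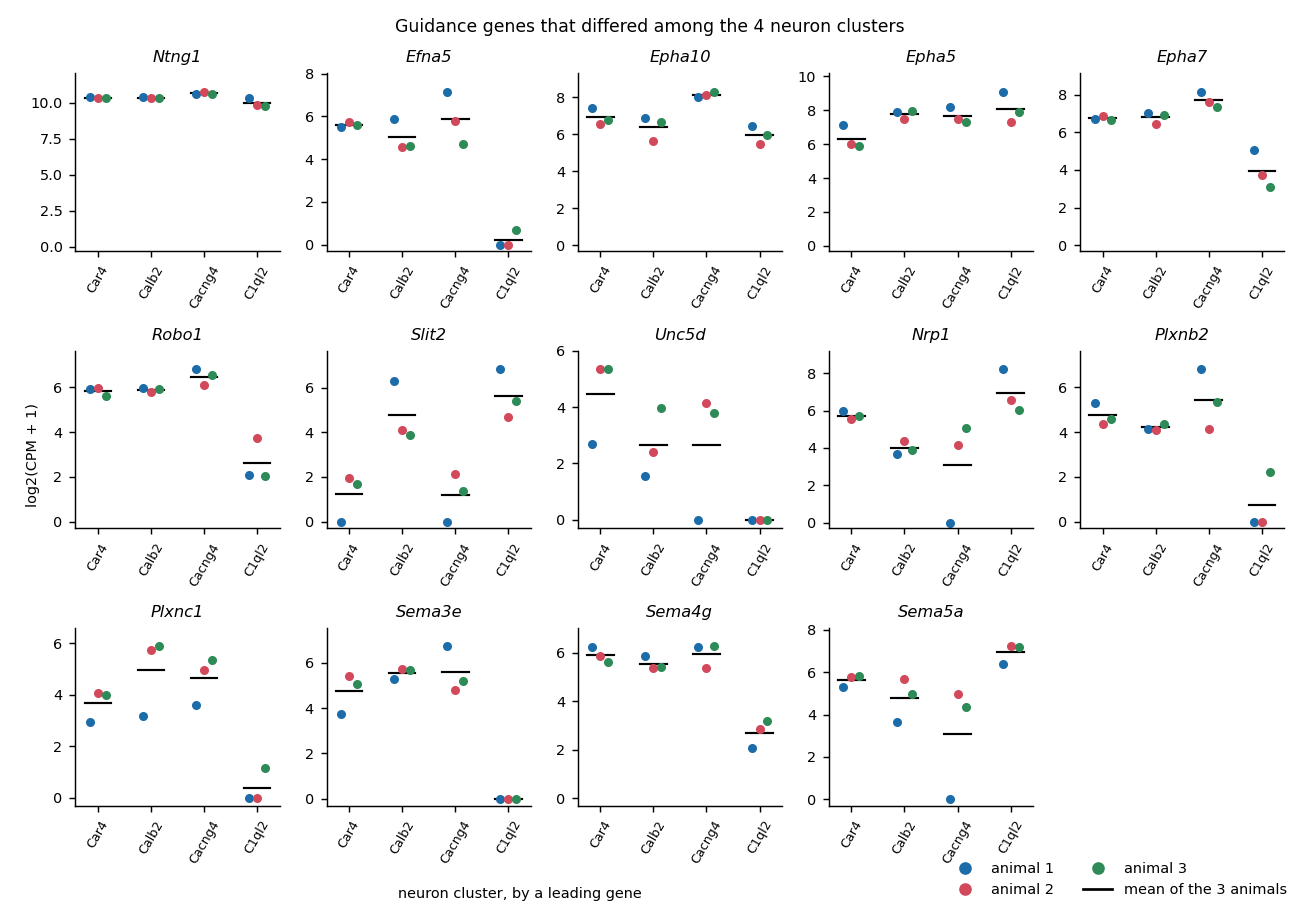
Level of the 14 members that differed among neuron clusters, as log2(CPM + 1) on the vertical axis, in the 4 clusters named by a leading gene. Each point is 1 of 3 animals and each line their mean, and the C1ql2 cluster lies lowest for members such as Epha7, Efna5 and Sema3e and highest for Slit2, Nrp1 and Sema5a.

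Among the ephrins, the ligands of Eph receptors, Efna5 was the member called. Ephrin-A5 is a lipid-anchored ligand of EphA receptors that patterns thalamocortical maps. It stood at 44.6, 52.9 and 47.3 CPM in animals 1, 2 and 3 in the Car4 cluster, at 58.0, 22.6 and 23.4 CPM in the Calb2 cluster and at 143, 53.6 and 25 CPM in the Cacng4 cluster. In the C1ql2 cluster it was at 0, 0 and 0.608 CPM, from 2 counts among 4077427. The 3 animals of that cluster were below every animal of the other clusters. The ratio of the other clusters' mean to it was 77.7, with a 95% counting interval of 21.5 to 641 (adjusted p = 0.000421). A counting interval covers only the counting error of the C1ql2 counts and not the spread between animals. Of the other 5 ephrins tested, none was called in the C1ql2 cluster by edgeR.

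Among the Eph receptors, 10 of 14 were tested, and 3 were lower and 1 higher in the C1ql2 cluster. Epha7, a receptor for ephrin-A ligands, stood at 31.9, 12.4 and 7.60 CPM there. Its levels were 105, 116 and 99.1 CPM in the Car4 cluster, 127, 87.3 and 122 CPM in the Calb2 cluster, and 285, 198 and 159 CPM in the Cacng4 cluster. The groups at both ends did not overlap with any other: the Cacng4 cluster was highest and the C1ql2 cluster lowest in all 3 animals. The log2 fold change was -3.15 (SE 0.44, adjusted p = 0.000125) for the C1ql2 cluster and 1.96 (SE 0.31, adjusted p = 0.000366) for the Cacng4 cluster. The latter was 1.04 without the C1ql2 cluster and stayed called.

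Epha10, an Eph receptor without kinase activity, was the member with the smallest p in the Cacng4 cluster. It stood at 252, 278 and 313 CPM there, at 171, 93.1 and 107 CPM in the Car4 cluster, at 118, 48.5 and 99.1 CPM in the Calb2 cluster and at 84.6, 43.4 and 61.7 CPM in the C1ql2 cluster. All 3 Cacng4 values were above every other value. The log2 fold change of the Cacng4 cluster was 1.84 (SE 0.26, adjusted p = 0.000132), and 1.61 without the C1ql2 cluster. In the C1ql2 cluster it was -1.20 (SE 0.31, adjusted p = 0.017), a call lost without animal 2 or animal 3 and with no filter on low counts.

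Epha5, another receptor of ephrin-A ligands, followed a different order. It was lowest in the Car4 cluster, at 139, 63.4 and 57.5 CPM, and higher in the Calb2 cluster, at 242, 176 and 245 CPM. It reached 297, 181 and 156 CPM in the Cacng4 cluster and 547, 155 and 237 CPM in the C1ql2 cluster. Within each animal the Car4 cluster was the lowest of the 4. In the edgeR fit the log2 fold change was -1.59 in the Car4 cluster (SE 0.28, adjusted p = 0.0115) and 0.89 in the C1ql2 cluster (SE 0.25, adjusted p = 0.0266). The Car4 call was kept without the C1ql2 cluster, at -1.43. Both calls were lost with no replicate block and without animal 2 or animal 3. Epha4, a receptor of both ephrin classes, did not pass the test among clusters (adjusted p = 0.0569). Its levels in the C1ql2 cluster were 67.0, 12.4 and 21.6 CPM against 45.0 to 371 CPM elsewhere, and it was called lower there at -1.90 (SE 0.51, adjusted p = 0.0215).

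Of the Slits, the secreted repellents read by Robo receptors, Slit2 was called. It stood at 113, 24.8 and 41.3 CPM in the C1ql2 cluster, at 0, 2.91 and 2.23 CPM in the Car4 cluster, at 0, 3.35 and 1.61 CPM in the Cacng4 cluster and at 77.2, 16.2 and 13.5 CPM in the Calb2 cluster. The C1ql2 cluster was highest within every animal, while the Calb2 cluster lay between it and the other two. The log2 fold change was 3.48 (SE 0.79, adjusted p = 0.0075) in the C1ql2 cluster. Slit2 counts were found in 23 of its 39 cells (59.0%). With every cell thinned to 5000 counts, the share was 20.5% (95% exact binomial interval 9.30 to 36.5%). It was 1.47% in the Car4, 5.56% in the Calb2 and 1.71% in the Cacng4 cluster. The interval pools the 39 cells, of which 25 came from animal 3, and does not cover the spread between animals. Thinning left out 32, 9, 20 and 0 cells of the Car4, Calb2, Cacng4 and C1ql2 clusters. In the oligodendrocyte cells the share was 0 of 27. Slit1 was not called (adjusted p = 0.259); its levels were 22.5, 16.2 and 23.7 CPM in the Calb2 cluster, and 0 to 17.0 CPM in the other clusters.

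Both Robos tested, the receptors of Slits, were lower in the C1ql2 cluster. Robo1 stood at 3.19, 12.4 and 3.04 CPM there. In the other clusters its 9 values lay between 47.4 and 113 CPM, the highest in the Cacng4 cluster at 113, 67.0 and 91.6 CPM. In the edgeR fit the log2 fold change was -3.94 (SE 0.65, adjusted p = 0.000566). Robo2 was listed at 0, 0 and 0.608 CPM in the C1ql2 cluster, from 2 counts. It stood at 17.4, 11.6 and 11.2 CPM in the Car4 cluster, at 15.8, 33.4 and 35.9 CPM in the Calb2 cluster and at 0, 13.4 and 50.4 CPM in the Cacng4 cluster. Robo2 overlapped between clusters in animal 1 and was called in that contrast (adjusted p = 0.0125, ratio 59.4, counting interval 16.4 to 490) but not in the test among clusters (adjusted p = 0.0502). So the cluster with the most Slit2 was also the cluster with the least Robo1 and Robo2. This order did not extend to the other clusters. The Calb2 cluster, next in Slit2, had the highest mean of Robo2, at 28.4 CPM, and a Robo1 mean of 58.9 CPM.

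Among the semaphorins, 14 of 20 were tested and 3 were called in the C1ql2 cluster. Sema3e encodes a secreted semaphorin that binds plexin-D1 directly. It was absent from all 39 cells of the C1ql2 cluster, at 0 counts in each animal. It stood at 12.3, 41.9 and 32.4 CPM in the Car4 cluster, at 37.9, 51.8 and 50.3 CPM in the Calb2 cluster and at 105, 26.8 and 35.9 CPM in the Cacng4 cluster. Against a floor of 3 counts over the C1ql2 cluster, it was at least 54.0-fold lower there (adjusted p = 0.000983). With cells thinned to 5000 counts, 12.7%, 17.1% and 10.3% of cells of the other 3 clusters kept a Sema3e count. The C1ql2 cells were the deepest of the 4 clusters.

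Sema5a, a transmembrane semaphorin with thrombospondin repeats, ran the other way. It stood at 81.4, 149 and 147 CPM in the C1ql2 cluster and at 39.1, 52.9 and 55.5 CPM in the Car4 cluster. Its levels were 11.5, 50.7 and 30 CPM in the Calb2 cluster and 0, 30.1 and 19.4 CPM in the Cacng4 cluster. All C1ql2 values exceeded all others, with a log2 fold change of 2.21 (SE 0.46, adjusted p = 0.00384). At 5000 counts per cell, 41.0% of cells in the C1ql2 cluster had a count, against 19.4%, 11.5% and 5.13% in the Car4, Calb2 and Cacng4 clusters and 28.0% in the oligodendrocyte cells. Sema4g, a transmembrane class 4 semaphorin, was lower in the C1ql2 cluster, at 3.19, 6.20 and 8.21 CPM against 39.9 to 76.3 CPM in the 9 other sums (log2 fold change -3.15, SE 0.64, adjusted p = 0.00323). Sema7a, a lipid-anchored ligand of plexin-C1, was not called among cells (adjusted p = 0.414), at 6.46, 22.1 and 24.4 CPM in the Car4 cluster and 0 to 15.3 CPM elsewhere. Sema4b, named because its value was seen, was called higher in the Cacng4 cluster, where animal 1 held 176 CPM from 8 cells and animals 2 and 3 held 23.4 and 12.1 CPM. That call was lost without animal 1 or animal 2.

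Semaphorin receptors split in the C1ql2 cluster. Nrp1, the co-receptor for class 3 semaphorins, was higher, at 298, 93 and 63.5 CPM. It stood at 61.7, 45.4 and 51.1 CPM in the Car4 cluster, 12, 19.4 and 13.9 CPM in the Calb2 cluster and 0, 16.7 and 32.7 CPM in the Cacng4 cluster. The lowest C1ql2 value was above the highest other value, and the log2 fold change was 2.52 (SE 0.58, adjusted p = 0.00764). Nrp2, the related co-receptor, was most abundant in the Car4 cluster, at 119, 89.0 and 99.0 CPM against 0 to 49.6 CPM elsewhere, but the test among clusters missed the threshold (adjusted p = 0.0661). Plxnc1 encodes plexin-C1, the receptor of Sema7a. It stood at 0, 0 and 1.22 CPM in the C1ql2 cluster and at 6.78 to 58.4 CPM in the others (log2 fold change -4.94, SE 1.06, adjusted p = 0.0051). Plxnb2, a receptor of class 4 semaphorins, was at 0, 0 and 3.65 CPM there and at 16.2 to 113 CPM in the others (-3.75, SE 0.98, adjusted p = 0.0181). Plxna4, a receptor for class 3 semaphorins with neuropilins and for class 6, was not called (adjusted p = 0.59), with 10.0 to 55.8 CPM over all sums. The antisense genes annotated over Plxna4 make its value uncertain, since strand-specific counting is not stated.

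Among the netrin receptors, Unc5d and Dcc were called lower in the C1ql2 cluster. Unc5d, which also binds the adhesion protein FLRT2, was at 0 in all 3 animals of the C1ql2 cluster. It stood at 5.49, 40.1 and 40.2 CPM in the Car4 cluster, 1.92, 4.31 and 14.7 CPM in the Calb2 cluster and 0, 16.7 and 12.9 CPM in the Cacng4 cluster, so animal 1 was the lowest throughout. The C1ql2 cluster was at least 26.3-fold lower than the mean of the others (adjusted p = 0.0128). Dcc, the attractive netrin receptor, was also at 0 there, against 0 to 22.5 CPM elsewhere, at least 8.43-fold lower (adjusted p = 0.0353 in that contrast, 0.108 among clusters). Both calls were lost without animal 2, and that of Unc5d also without animal 3; Dcc had too few counts to be tested without animal 3. Unc5c, a repulsive netrin receptor, was not called among clusters (adjusted p = 0.9), at 26.4 to 93 CPM in the C1ql2 cluster and 22.5 to 67.0 CPM in the others. Unc5b, of the same family, was not called either (adjusted p = 0.358), with 47.8, 20.4 and 25.6 CPM in the Car4 cluster and 0 to 24.8 CPM elsewhere. Ntn1, their secreted ligand, was not called (adjusted p = 0.191), with 22.3, 18.6 and 11.6 CPM in the C1ql2 cluster, 26.3, 0 and 1.21 CPM in the Cacng4 cluster and 0 to 6.46 CPM in the others.

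Ntng1 was expressed throughout. Netrin-G1 marks thalamic neurons, where it sits on their axons. Counts were present in 97.4 to 98.1% of the cells of each neuron cluster, and in 11 of 27 oligodendrocyte cells (40.7%), where the level was 598 CPM. The oligodendrocyte cells also held thalamic neuron markers, as given above. Levels were 1351, 1273 and 1269 CPM in the Car4 cluster and 1319, 1298 and 1264 CPM in the Calb2 cluster. They reached 1562, 1734 and 1565 CPM in the Cacng4 cluster and were 1297, 899 and 893 CPM in the C1ql2 cluster. The Car4 and Calb2 clusters overlapped, and the Cacng4 cluster lay above all others in each animal. The log2 fold change was 0.55 (SE 0.12, adjusted p = 0.00556) in the Cacng4 cluster and -0.45 (SE 0.13, adjusted p = 0.0289) in the C1ql2 cluster. Both calls were lost without animal 2 or animal 3, the Cacng4 call also with no filter on low counts, and the C1ql2 call also with no replicate block. Ntng2, the other netrin-G, reached at most 1.82 CPM in any sum.

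**Figure D2:**
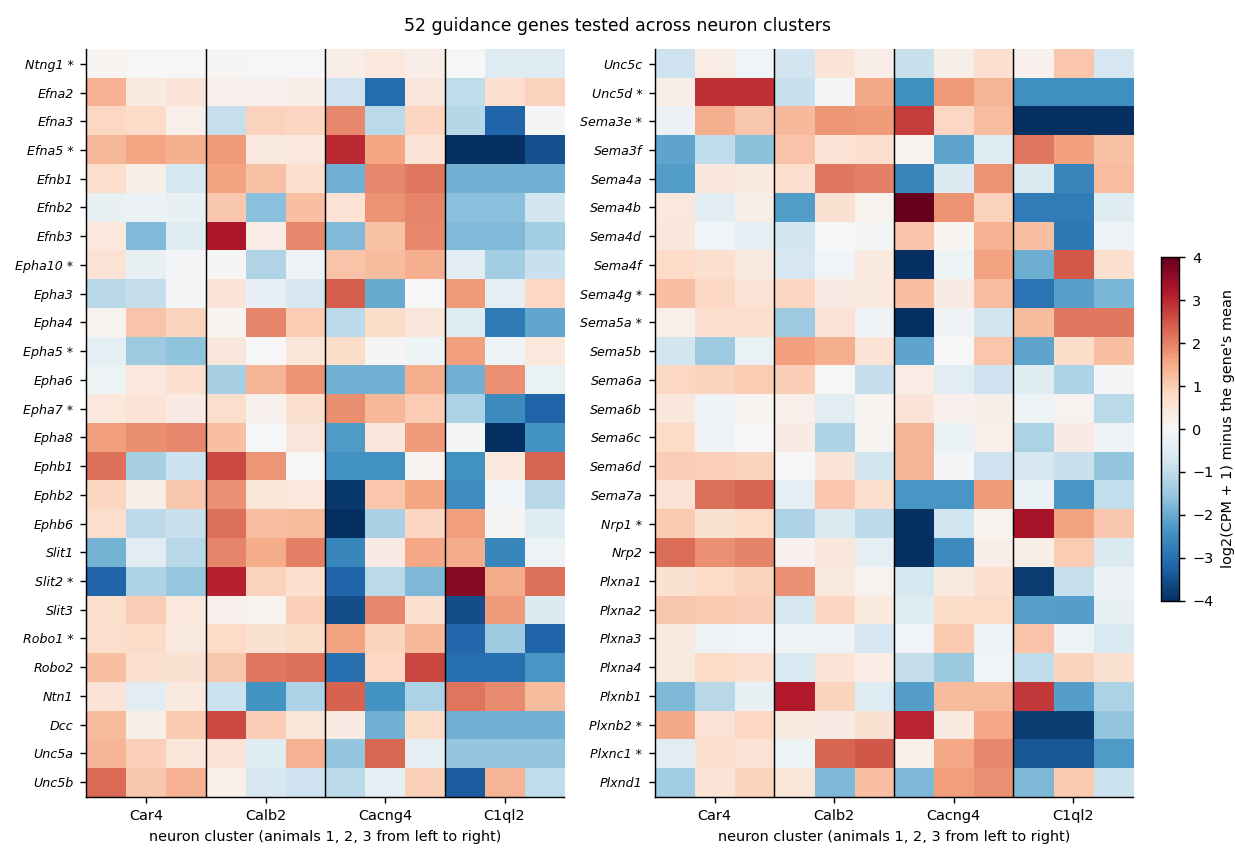
The 52 tested members (rows) in the 12 sums of 4 neuron clusters and 3 animals (columns), coloured by log2(CPM + 1) minus the gene's mean over the 12 sums, with an asterisk on the 14 members that differed among clusters. Ntng1 varies little between columns, and the columns of the C1ql2 cluster hold the low values of Efna5, Sema3e and Unc5d.

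The stretches of 250 bases that end at the annotated start are shown for 3 members called in the C1ql2 cluster, 2 whose lower call held in all 6 alternatives (Efna5 and Sema3e) and 1 that was called higher both there and in the C1ql2 subregion of the sections (Sema5a). The Sema5a call in the cluster was lost without animal 2 or animal 3. They are RefSeq sequences of build GRCm38.p6, written 5′ to 3′ on the gene's strand, and capitals mark matches to either of the 2 motifs searched. Efna5 lies at chr17:62881318-62881567, minus strand, Sema3e at chr5:14025026-14025275, plus strand, and Sema5a at chr15:32244563-32244812, plus strand.
Efna5: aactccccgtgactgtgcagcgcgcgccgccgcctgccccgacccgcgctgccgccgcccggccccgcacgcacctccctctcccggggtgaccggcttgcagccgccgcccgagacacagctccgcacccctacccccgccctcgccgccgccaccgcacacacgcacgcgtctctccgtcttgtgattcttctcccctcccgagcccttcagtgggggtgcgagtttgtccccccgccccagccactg
Sema3e: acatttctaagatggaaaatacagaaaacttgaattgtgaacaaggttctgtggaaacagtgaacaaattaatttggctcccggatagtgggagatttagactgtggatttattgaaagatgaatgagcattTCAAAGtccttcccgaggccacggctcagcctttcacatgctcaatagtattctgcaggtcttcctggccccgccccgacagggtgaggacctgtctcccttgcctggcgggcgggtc
Sema5a: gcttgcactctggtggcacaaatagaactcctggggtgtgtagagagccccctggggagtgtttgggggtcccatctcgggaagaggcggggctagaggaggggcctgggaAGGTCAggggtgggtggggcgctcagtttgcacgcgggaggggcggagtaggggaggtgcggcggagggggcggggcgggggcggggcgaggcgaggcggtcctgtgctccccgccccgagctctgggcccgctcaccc
The motifs were the ROR receptor site AGGTCA, which reads TGACCT on the other strand, and the core bound by TCF and LEF factors, CTTTGA, which reads TCAAAG on the other strand. Both strands were searched, and neither motif contains the other. The transcription factors of both kinds, Rora, Tcf7l2 and Lef1, are on the list of thalamic markers used here. Sema5a held 1 AGGTCA and Sema3e 1 CTTTGA, and Efna5 held neither. Across all 32851 promoters of this length, 14% held AGGTCA and 13.8% CTTTGA. Of the 75 entries of the 59 members found, 10 (13.3%) and 4 (5.33%) did. The median GC content was 64.4% for the members' entries and 52.4% for all entries, and a match is only a description of these letters.

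In the tissue sections the members were compared between the thalamus and other brain regions. Spots were clustered without the members into 12 regions. The region led by Shox2 and Tcf7l2 was highest in 12 of 13 thalamic markers; it held 205, 199 and 254 spots in sections 2, 5 and 6 and is called the thalamic region here. A region of 61 spots led by Cabp7, with 60 of them in section 6, was left out of the comparisons, which cover the other 11. In bulk captures such as spots, fewer cells of a type and less RNA per cell cannot be told apart. Of the 69 members, 62 were tested and 60 differed among regions, where 86.1% of all genes did. Against the equally weighted mean of the other regions, 14 members were higher in the thalamic region (17.9% of all genes were) and 12 lower (14.3%). In either direction that is 26 of 62 members, beside 32.2% of all genes.

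Ntng1 had the largest difference of the members. It stood at 371, 333 and 355 CPM in the thalamic region of sections 2, 5 and 6, and the next region, led by Lmo3, had a mean of 54.0 CPM. In the edgeR fit the log2 fold change was 4.13 (SE 0.08, adjusted p = 7.19e-47). Epha8, another Eph receptor of class A, stood at 23.3, 31.6 and 30.4 CPM against a next mean of 12.5 CPM in the region led by Pde10a and Adora2a (log2 fold change 2.52, SE 0.20, adjusted p = 9.55e-17). Sema4g, low in the C1ql2 neurons, stood at 49.0, 59.1 and 47.7 CPM. Its next region, led by Six3 and Pvalb, had 41.6 CPM, so the step was small, and the log2 fold change against all regions was 1.44 (SE 0.13, adjusted p = 1.82e-14). In each of the 3 sections these 3 members were higher in the thalamic region than in any other. Robo1 (1.26), Plxnc1 (1.07), Epha5 (0.92), Efna5 (0.89), Sema5a (0.87) and Epha10 (0.73) were also higher on the log2 scale against the mean, without being above every other region in each section, as were Unc5c (1.05), Plxna1 (0.96), Sema6b (0.88), Plxna3 (0.56) and Sema6d (0.35). The call of Efna5 was lost without section 6, that of Sema6d without section 5 or 6, and that of Plxna3 without section 2 or 5.

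The members with the lowest log2 fold changes in the thalamic region were Sema3a, Efnb2, Unc5a and Robo2. Sema3a, a secreted repellent, stood at 1.49, 4.08 and 0.574 CPM there, against 38.4 CPM in the region led by Unc13c and Itih3 and 0.788 CPM in the Six3 region. Its log2 fold change was -2.95 (SE 0.56, adjusted p = 1.55e-05), and the call was lost without section 2. Efnb2, a transmembrane ephrin, stood at 4.95, 11.2 and 6.32 CPM, against 65.5 CPM in the Lmo3 region (-1.80, SE 0.24). Unc5a, a repulsive netrin receptor, stood at 15.4, 10.2 and 16.1 CPM, against 68.2 CPM in the Lmo3 region (-1.31, SE 0.18). These 3 were named after their values were seen. Robo2 stood at 14.9, 26.5 and 16.1 CPM, against 86.3 CPM in the Lmo3 region and 85.8 CPM in the Pde10a region (-1.24, SE 0.16). Robo1 and Robo2, which share the Slits as ligands, thus lay on opposite sides of the other regions' mean. Slit2 itself was lower, at 11.4, 10.2 and 12.6 CPM (-0.74, SE 0.18), with its highest mean, 42.2 CPM, in the region led by the choroid plexus gene Ttr.

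**Figure D3:**
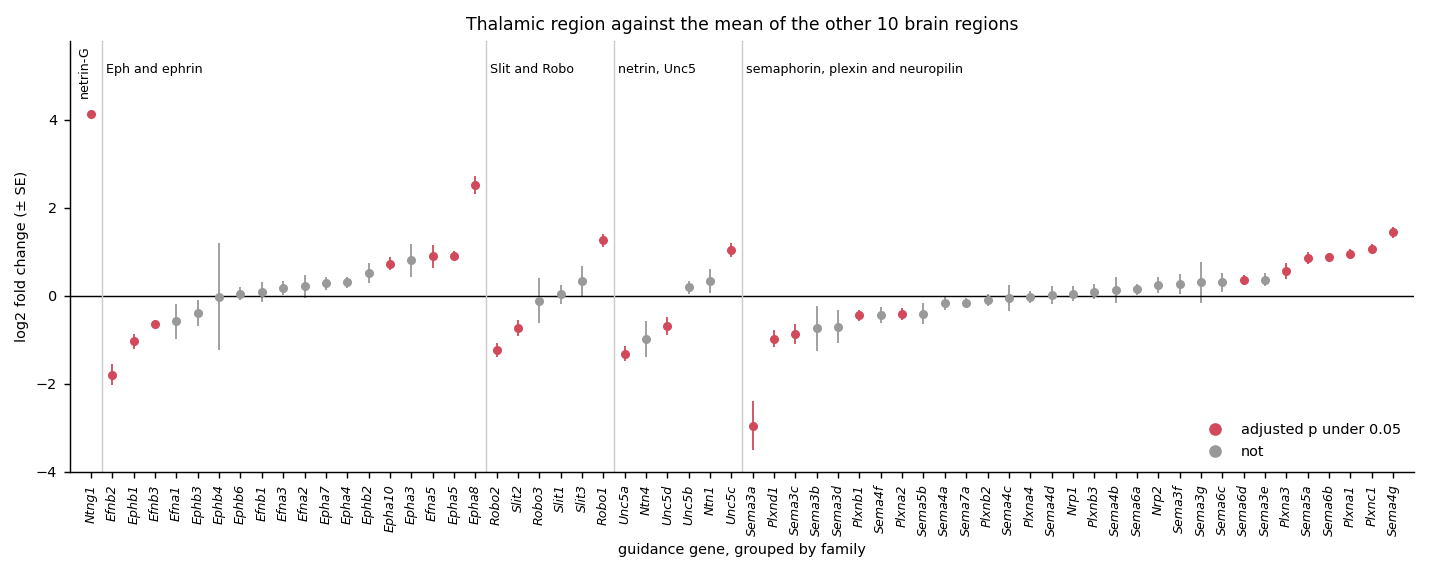
Log2 fold change, with its SE as a bar, of the 62 tested members in the thalamic region against the mean of the other 10 regions. Ntng1 stands apart at 4.13, followed by Epha8 at 2.52, and Sema3a is lowest at -2.95.

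**Figure D4:**
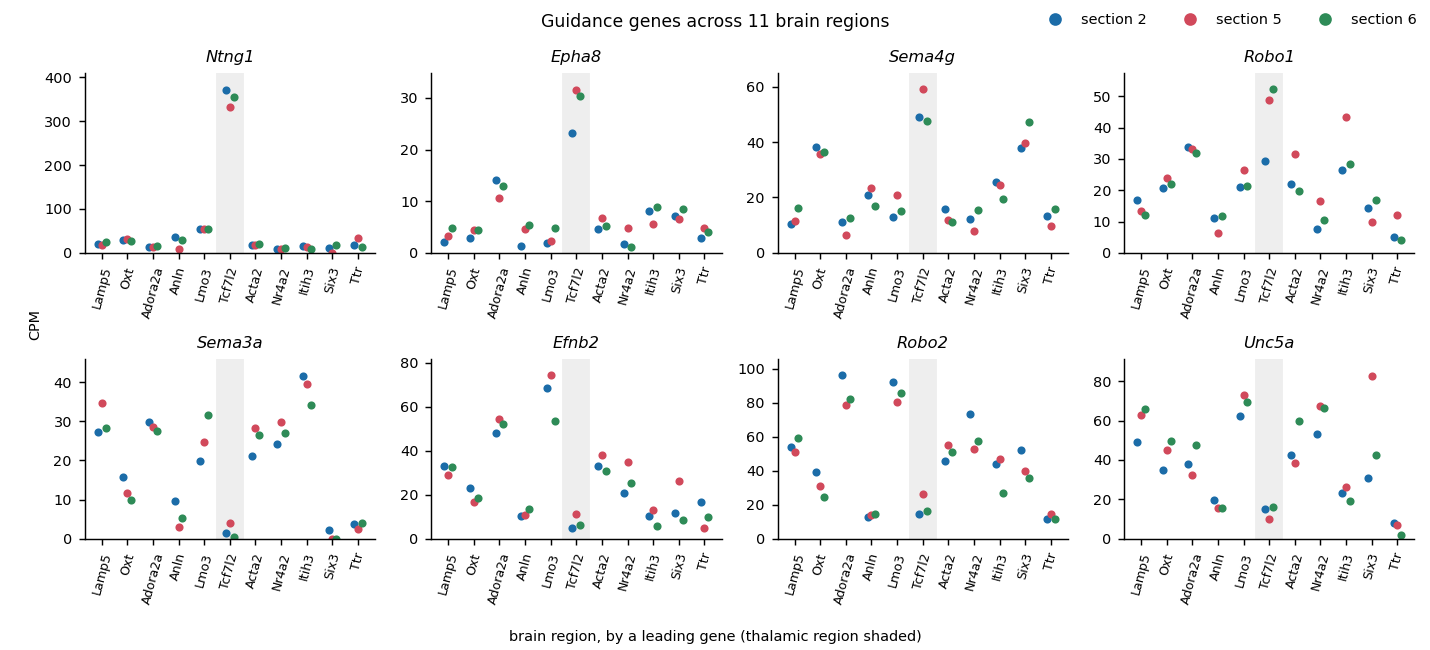
Level in CPM of 8 members in 11 brain regions named by a leading gene, with 1 point per section. Ntng1, Epha8 and Sema4g are higher in the thalamic region than in any other within each section, whereas Sema3a, Efnb2, Robo2 and Unc5a are low there.

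By the region in which each member had its highest mean, 7 of the 62 peaked in the thalamic region: Epha8, Ntng1, Plxna1, Robo1, Sema4g, Sema6b and Unc5c. The Lmo3 region was the peak of 13 members and the region led by Trbc2 and Nr4a2 of 10. Within the thalamic region the anterior section was set beside the 2 posterior ones without a test, since there is 1 anterior section. Among 45 members with at least 50 counts, 2 were at least 2-fold lower in the anterior section than in both others (0.717% of all genes were) and 0 were higher (0.158%; 0.875% in either direction). Efnb1 stood at 4.08 CPM (95% Poisson interval 1.11 to 10.4) against 13.9 and 14.4 CPM, and Plxnb3 at 11.2 CPM (5.60 to 20.1) against 25.3 and 24.1 CPM. Ntng1 stood at 333 CPM (298 to 371) in the anterior section and at 371 CPM (345 to 399) and 355 CPM (327 to 384) in the posterior sections, so these intervals overlapped. All these intervals cover counting error only.

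Clustered again, the thalamic spots gave 6 subregions, called by a leading gene: Calb2, Htr2c, Col27a1, Calca, Hba-a1 and C1ql2. Of the members, 25 were tested and 9 differed among subregions (36.0%), where 21.4% of all genes did. By cue family these were 5 semaphorins, 1 plexin, 2 Eph receptors and 1 netrin receptor. The Calb2 subregion had 2 members higher (5.53% of all genes were) and 2 lower (5.49%). The Col27a1 subregion had 5 higher (3.81%) and 1 lower (3.08%), and the C1ql2 subregion had 1 higher (7.51%) and 4 lower (6.01%), the latter Plxnc1, Unc5b, Plxna1 and Efnb3. Of these calls that of Plxnc1 held in all 7 alternatives, while Plxna1 lost its call in 5, Efnb3 in 6 and Unc5b in 4 of 7, among them DESeq2 for all 3 and, for Plxna1 and Efnb3, the fit with no replicate block. Efnb3 and Unc5b were also found in the oligodendrocyte cells, at 498 and 65.8 CPM, and the 9 oligodendrocyte markers summed to 5029 CPM in the C1ql2 subregion against 8707 to 10033 CPM in the Htr2c, Col27a1 and Calca subregions. Their part in these 2 calls was not tested. Plxna1 and Efnb3 did not pass the test among subregions (adjusted p = 0.157 and 0.108). The Calca subregion had Sema3e and Plxnc1 higher (2.75%) and the Hba-a1 subregion, led by hemoglobin genes, had Plxnc1 higher (0.832%). The 7 reticular thalamic markers summed to 801 CPM in the Calca subregion, against 143 to 527 CPM in the others. The part of these markers in the Calca calls was not tested. Both Plxnc1 calls were lost without the C1ql2 subregion and without section 2, and that of the Calca subregion also without section 6 and with no replicate block. In the Htr2c subregion edgeR called 0, as did DESeq2 (1.63% of all genes), and 5 had an unadjusted p under 0.05. The sums were small, down to 5 spots and 26528 counts in the Hba-a1 subregion of section 5, where 1 count is worth 37.7 CPM.

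Plxnc1 was the sharpest of these. The Sema7a receptor stood at 82.2, 67.7 and 111 CPM in the Calb2 subregion of sections 2, 5 and 6, at 13, 29 and 4.22 CPM in the Col27a1 subregion and at 0 in all 3 sections of the C1ql2 subregion. Its 9 values in the other 3 subregions lay between 40.6 and 151 CPM, so the Col27a1 and C1ql2 subregions did not overlap with the rest. The C1ql2 subregion was at least 8.53-fold lower than the others (adjusted p = 4.73e-06). The log2 fold change of the Calb2 subregion was 2.38 (SE 0.32, adjusted p = 2.13e-08) and 1.10 without the C1ql2 subregion, still called. The Calb2 subregion also had the highest summed level of 13 hypothalamic markers over the 3 sections together, at 994 to 2432 CPM across sections against 295 to 2149 CPM in the others, and of 6 habenular markers, at 38.8 to 429 CPM against 0 to 63.5 CPM. For the hypothalamic markers it overlapped with the Hba-a1 subregion, at 641 to 2149 CPM. Over brain regions, the region led by Oxt and Avp had the second highest mean of Plxnc1, at 55.0 CPM, and of Epha5, at 125 CPM, after the Lmo3 region. The part of these markers in the Plxnc1 and Epha5 values was not tested. In the analysis without the C1ql2 subregion the Col27a1 subregion was called lower, at -2.05 (SE 0.38). Sema7a, its ligand, ran opposite to Plxnc1 between the Calb2 and Col27a1 subregions: it stood at 27.4, 36.3 and 37.8 CPM in the Calb2 subregion and at 71.3, 116 and 164 CPM in the Col27a1 subregion. Within each of sections 2 and 6 the Calb2 value was the lowest of the 6. The log2 fold changes were -1.20 (SE 0.24, adjusted p = 0.000145) and 0.95 (SE 0.22, adjusted p = 0.00193), the latter lost without section 6 (adjusted p = 0.0664). The opposite order did not extend to the other subregions. In the C1ql2 subregion, where Plxnc1 was at 0, Sema7a stood at 36.6, 46.0 and 49.3 CPM. In the Htr2c, Calca and Hba-a1 subregions, where Plxnc1 was high, its log2 fold changes were 0.52, 0.36 and 0.13, none of them called.

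Epha5 was lowest in the Col27a1 subregion, at 38.9, 33.9 and 33.7 CPM, against 121, 157 and 197 CPM in the Calb2 subregion and 102, 169 and 128 CPM in the C1ql2 subregion. The log2 fold change was -1.58 (SE 0.27, adjusted p = 1.18e-05) in the Col27a1 and 0.94 (SE 0.16, adjusted p = 9.42e-06) in the Calb2 subregion, and both calls held in all 8 alternatives. Epha8 was high in the Col27a1 subregion, at 61.5, 77.4 and 29.5 CPM against 4.57, 16.9 and 15.9 CPM in the Calb2 subregion (log2 fold change 1.37, SE 0.37, adjusted p = 0.0126). That call was lost without section 2 or section 5. The pair of EphA receptors thus ran in opposite directions between these subregions. Sema3e stood at 61.5, 62.9 and 46.4 CPM in the Col27a1 subregion and at 60.6, 43.8 and 59.5 CPM in the Calca subregion, and at 0 to 32.5 CPM in the other 4, with no overlap. It was called higher in both, at 1.52 (SE 0.35) and 1.48 (SE 0.37), and both calls were lost without section 2.

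Sema5a was highest in the C1ql2 subregion, at 132, 130 and 104 CPM, against 19.4 to 113 CPM in the other 15 sums (log2 fold change 1.64, SE 0.27, adjusted p = 3.7e-06). The 113 CPM came from 3 counts in the smallest sum. Unc5b, a netrin receptor, was lower there, at 14.6, 0 and 9.87 CPM (-1.89, SE 0.63, adjusted p = 0.0328), a call lost without any 1 of the sections and with DESeq2. Nrp2 was called higher in the Col27a1 subregion, at 58.3, 72.6 and 25.3 CPM (1.45, SE 0.40, adjusted p = 0.0151). The test among subregions did not call it (adjusted p = 0.0811). Sema6d (0.79, SE 0.23) was also called higher in the Col27a1 subregion, and Sema6a was called lower in the Calb2 subregion (-0.87, SE 0.27). All 3 lost these calls with DESeq2. Sema6d also lost its call without any 1 of the sections, and Sema6a without section 2 or section 6 and with no filter on low counts. Nrp2 kept its call without section 6 and had too few counts to be tested without section 2 or section 5. Sema6d and Sema6a are transmembrane semaphorins that were also found in the oligodendrocyte cells. Sema6d stood at 111 CPM in those cells and at a mean of 114 CPM in the Car4 neurons. The 9 oligodendrocyte markers summed to 9110 to 10186 CPM in the Col27a1 subregion and 3248 to 4014 CPM in the Calb2 subregion. Their part in these results was not tested. Ntng1 was not called among subregions (adjusted p = 0.25), at 253 to 454 CPM.

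**Figure D5:**
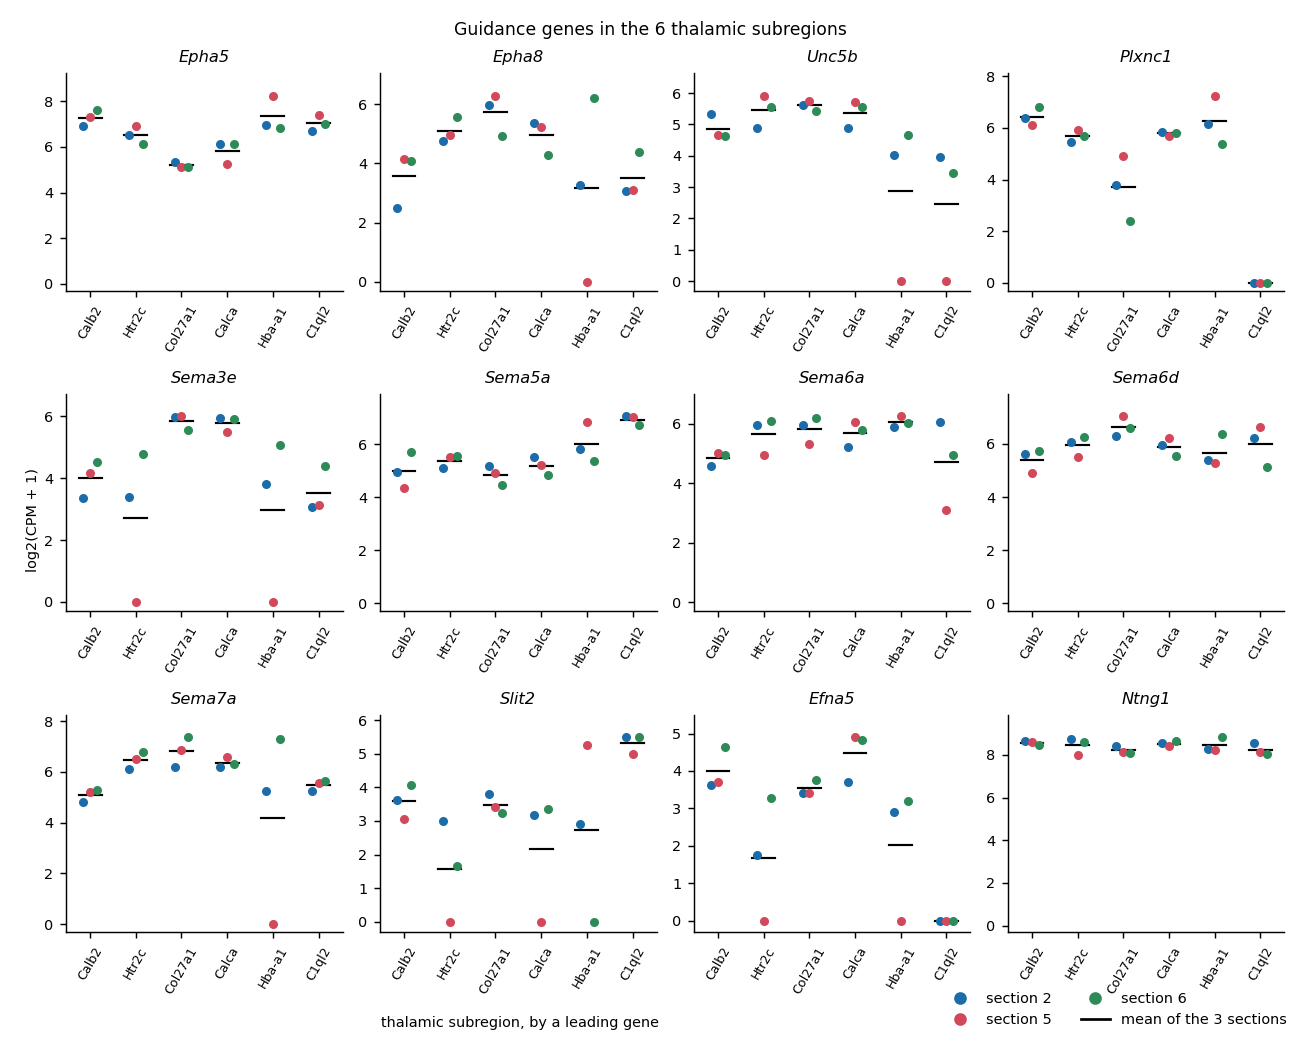
Level, as log2(CPM + 1), of the 9 members that differed among thalamic subregions, and of Slit2, Efna5 and Ntng1, in 6 subregions named by a leading gene, with 1 point per section and a line at their mean. Plxnc1 is at 0 in the C1ql2 subregion and low in the Col27a1 subregion, and Sema5a is highest in the C1ql2 subregion.

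The C1ql2 neurons and the C1ql2 subregion come from separate assays and could be set side by side for 25 members tested in both. In cells 11 of these were called and in spots 5, and 2 were called in both, Plxnc1 lower and Sema5a higher. That is 18.2% of the former, 40.0% of the latter and 8.0% of the 25. Of 5740 genes tested in both assays, 7.2% were called in both. That is 38.2% of those called in cells and 53.4% of those called in spots. The members' share of those tested was near that of all genes. Their shares of those called in cells and in spots were lower, and rest on 2 members. Slit2 and Efna5 had too few counts in spots to be tested. Slit2 stood at 43.9, 30.6 and 44.4 CPM in the C1ql2 subregion and at 0 to 37.7 CPM in the others, and Efna5 was at 0 in all 3 sections of it, a subregion of 469895 counts in which a floor of 3 counts is 6.38 CPM. The Car4 neurons and the Col27a1 subregion were also set side by side, with 3 of 4 and 4 of 4 anteroventral markers highest there. Col27a1 itself was higher in the Cacng4 neurons (483 CPM) than in the Car4 neurons (442 CPM). In the Car4 neurons and the Col27a1 subregion, Epha5 was called lower in both. It was the 1 member of these 25 called in cells, and 6 were called in spots. Of the 5740 genes, 58 were called in cells, 375 in spots and 45 in both (0.784%). These 45 are 77.6% of the genes called in cells, so a shared call such as that of Epha5 was common among them.

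A list of 70 other pathway genes held adaptors, cytoskeletal effectors and adhesion partners of these receptors. In cells 62 were tested, and 13 (21.0%) differed among clusters, where 12.8% of all genes did. The C1ql2 cluster had 3 higher and 9 lower (6.23% and 6.13% of all genes), and the Cacng4 cluster 8 higher and 4 lower (7.15% and 7.18%). Enah, an actin regulator at the tips of growth cones, had a log2 fold change of -1.73 in the former and 1.40 in the latter, and Rock2, a kinase that acts on the actin cytoskeleton, had -1.21 and 1.19. In the Calb2 cluster Gap43, a protein of growth cones and presynaptic terminals, was the 1 gene called (1.01), where 0.927% of all genes were. In the thalamic region 31 of 69 tested pathway genes were higher and 12 lower (17.9% and 14.3% of all genes), with Vav3, a guanine nucleotide exchange factor, at 3.39, the adhesion molecule L1cam at 1.66, Gap43 at 1.30 and Ngef, the exchange factor ephexin, at -2.01. In the C1ql2 subregion 5 of 50 were higher and 9 lower (7.51% and 6.01% of all genes), among them Gap43 (-0.73) and the repulsive guidance molecule Rgma (1.02).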

How the data were processed

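Both deposited tables are of unnormalized counts, per the file headers: 1 of wells with a cell each and 1 of Visium spots. The submitters' processing notes name Seurat, Space Ranger and the builds NCBIM37 and mm10. The aligner, the counter and whether reads or molecules were counted are not given in the sources used here. The deposited well table and spot list give, per the file headers, an animal number and a section (other unit). The 14 labelled plates could not be matched to the table by name, so the animal number is the replicate. The 3 sections are not stated to come from separate animals, so p-values there measure only the spread between sections, which may be technical.

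Wells under 1000 detected genes were dropped, and 9 wells whose source named another animal were left out. Cells and spots were scaled to 10000, and clustered (scanpy 1.11.5, Leiden resolution 0.5, 2000 variable genes, 30 components) without the members and the pathway list. No doublet caller was run. Cells with 3 or more markers of another type (34, 19, 5 and 4 in the Car4, Calb2, Cacng4 and C1ql2 clusters) were left out in an alternative. Clustering with all genes put 92.5% of cells in the matching cluster. Sums were taken over each cluster in each animal and each region in each section, with at least 5 units a sum, and tested with edgeR 4.0.16 (TMM, filterByExpr, quasi-likelihood), the animal or section as a block, Benjamini-Hochberg over all genes. DESeq2 1.42.0 was an alternative. A CPM is a count per 1000000 counts of its sum, and a level is compared only within a gene. A log2 fold change compares a group with the mean of the others' log values. Same-numbered sums come from 1 animal or section. The median correlation of their residuals was 0.0579 in cells, 0.0932 in regions and 0.0864 in subregions, against -0.0374, -0.0517 and -0.0507 for other pairs. The analysis was tested on simulated data in which genes were raised in 1 group. In the contrast of the C1ql2 cluster it recovered 7% of 2-fold and 52% of 4-fold changes. In the contrast of the C1ql2 subregion it recovered 79% and 100%. A gene not called in cells may therefore still differ.

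The members and lists were chosen with earlier results of these data known. Named with their values are members called among clusters or subregions (at most 6 per family, at least 20 CPM in the highest group) and a set named whatever its values. Up to 4 pathway genes were named per comparison. RefSeq promoter entries at a gene's outermost start were used.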

Additional observations from a re-analysis of the deposited data

Results flagged for a closer look

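Wells that held spike-in RNA and no cell were not part of any comparison, and members were counted in them. The 56 such wells held 79309 counts, of which 65 fell on members and 0 on Ntng1. Of these, 1 plate held 69279 of the counts and 38 of the member counts. The 16 blank wells held 323 counts, with 0 on members. That total is too small to say whether the spike-in wells differed from the blank wells. In the cells kept, 115241 counts fell on members and 48821 of these on Ntng1.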

How the results depend on the processing

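The members' contrast in the thalamic region and their test among regions stayed within 1.5 times of 26 and 60 under every alternative, and no named result changed direction. The other counts moved. They are given without the share of all genes called under each alternative, so they are not read as particular to the members. Among neuron clusters (14 members), DESeq2 called 25, leaving out 1 animal gave 3 to 28, and leaving out the C1ql2 cluster gave 2. For the Car4 cluster (1), DESeq2 called 5, no filter on low counts 4, no replicate block 0, and leaving out 1 animal 0 to 11. For the Calb2 cluster (0), these were 2, 2, 1 and 0 to 11. For the Cacng4 cluster (9), leaving out 1 animal gave 4 to 18 and leaving out the C1ql2 cluster 3. For the C1ql2 cluster (17), leaving out 1 animal gave 4 to 26. Lower values came without animal 2 or 3 and higher ones without animal 1.

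Among subregions (9), no filter gave 15. For the Calb2 subregion (4), no filter gave 8. For the Col27a1 subregion (6), leaving out 1 section gave 2 to 4. For the Calca subregion (2), DESeq2 called 0, no replicate block 1, leaving out 1 section 0 to 2, and leaving out the C1ql2 subregion 1. For the Hba-a1 subregion (1), leaving out 1 section gave 0 to 2. For the C1ql2 subregion (5), DESeq2 called 2, no replicate block 3, and leaving out 1 section 3 to 5. With a fold of 1.5 instead of 2, 5 members differed in the anterior section. Without the replicate block, 17 members in place of 14 differed among clusters and 7 in place of 9 among subregions. Leaving out a cluster, a subregion or the smallest sum was chosen after seeing the data. The cause of these changes was not tested. Fits without an animal or section also had fewer sums. In the C1ql2 cluster of animal 2, 1 count was worth 6.20 CPM, which limits low levels there.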

Other observations

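The 27 oligodendrocyte cells, which also held thalamic neuron markers as given above, were not compared with the neurons by a test. Over all of them, Efnb3, a transmembrane ephrin, stood at 498 CPM (95% Poisson interval 460 to 539) and was counted in 22 cells, and Sema6a stood at 158 CPM (137 to 182), in 21 cells. These intervals pool 27 cells and cover counting error only, and are too narrow if the counts are reads and not molecules. Sema6d stood at 111 CPM, the receptor Ephb1 at 102 CPM and the plexin Plxnb3 at 77.7 CPM. In neurons, Efnb3 averaged 1.66, 15.5, 6.27 and 0.101 CPM in the Car4, Calb2, Cacng4 and C1ql2 clusters, and Sema6a 86.2, 53.4, 38.4 and 31.1 CPM. Sema6d averaged 114, 58.9, 79.9 and 28.9 CPM in these clusters, so the oligodendrocyte cells did not exceed the Car4 cluster for it.

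Wells labelled qRNA held 2420 member counts among 4367024 counts, and 0 on Ntng1.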
